A study of Rattus norvegicus with 10 samples.

Results

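The earliest sampled response of Sertoli cells to follicle-stimulating hormone (FSH) was described by comparing the arrays of FSH for 2 h with those of untreated cells at 0 h. Members were all probe sets other than the 59 control probe sets, 8740 of 8799, on 4 of the 10 arrays of the series. Replicate 1 was set against replicate 1 and replicate 2 against replicate 2. Both groups were primary cultures of Sertoli cells, the somatic cells of the seminiferous tubule, from rats 20 days old, with 2 arrays each (n = 2), and total RNA was hybridised. The untreated group had received no FSH at 0 h, and the treated group was collected after 2 h with the hormone. The strain, the FSH dose and the culture medium are not given in the sources used here. A treated label carried no replicate number and was taken as replicate 1 because its partner was numbered 2. No untreated culture of 2 h was labelled, so FSH and the added time in culture cannot be told apart.

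FSH is the pituitary hormone that Sertoli cells receive through Fshr, a receptor coupled to the stimulatory G protein. The receptor raises cyclic AMP, which frees protein kinase A to phosphorylate the factor CREB at cyclic AMP response elements (CRE). Genes whose promoters are reached in this way can be transcribed without new protein synthesis, and many encode transcription factors or inhibitors that limit the same signal.

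The arrays gave linear intensities, which were scaled to a shared 75th percentile of 107.5 and limited from below at a floor of 13.4 before log2 was taken. After a filter on brightness, 4439 probe sets were tested with limma, and an adjusted p (Benjamini-Hochberg) under 0.05 was called. Across these, the replicates correlated at r = 0.867 at 0 h and 0.893 at 2 h, and the log2 difference between replicates had an SD of 0.978 and 0.843. The labels do not say that replicates were separate cultures; the p-values thus cover the spread among these samples alone, and that spread may be technical. The 7 fixed Sertoli markers with a probe set were all bright enough to test. Clu, the secreted protein clusterin, read 13782 and 7695 at 0 h and 10625 and 8137 at 2 h, replicates 1 and 2 in that order. The arrays also held germ cell transcripts, which followed the replicate number. The summed intensity of 16 germ cell markers was 1203 and 2969 at 0 h against 781 and 3213 at 2 h, with 3 of the markers at the floor on all 4 arrays. The 10 peritubular myoid markers summed to 415 and 882 against 457 and 1341. No germ, myoid, Leydig, endothelial or macrophage marker passed limma's test, and 1 myoid probe set had an unadjusted p under 0.05. Control replicate 1 stood apart in its spiked control CreX, at 16221 against 5711 to 7920 on the other 3 arrays. The 3'/5' ratio of beta-actin, a sign of RNA integrity, was 1.17 and 1.76 at 0 h and 1.06 and 1.48 at 2 h. That of GAPDH was 0.737 and 0.914 against 0.735 and 0.992. Hexokinase was less even, at 1.6 and 5.27 against 2.68 and 2.58. The part of these differences in the results was not tested, and fewer cells of a type and less RNA per cell cannot be told apart in such samples.

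Few probe sets were called at 2 h, and with the brightness filter nearly all of them rose. Of the tested probe sets, 28 rose (0.631%) and 2 fell (0.0451%), 0.676% in all. With no filter on dim probe sets 14 rose and 9 fell, and 178 higher and 237 lower had an unadjusted p under 0.05. Only 10 of the 30 calls stayed called there. The rises stood for 19 named genes and both falls for Txnip, while 3 rising probe sets have no single gene symbol. The rises had a median of 3.23 log2 units and ran from 2.09 to 4.59, against a median of -0.02 over everything tested. Each rise was present in both pairs of arrays, at 2.08 to 5.29 log2 units in replicate 1 and 1.73 to 4.66 in replicate 2. In 5 of them both untreated arrays were at the floor, and in 4 more 1 of them was, so that the size of these rises depends on the floor. Where both untreated values lay under the filter's cut of 31.92, a probe set passed only through FSH arrays, of 2 h or later. The filter favoured such rises, and their calls carry this selection. Where neither untreated array exceeded the floor, the fold is printed as a lower bound. Fitted with the replicate number as a block, 51 rose (1.15%) and 3 fell (0.0676%), 1.22% in all, and the 30 calls were among these 54. Same-numbered arrays of 0 h and 2 h deviated together only weakly (r = 0.11), the lowest of the 10 pairs of groups. The block added 12 named genes, and the wider set is described beside the other below as rising with the replicate block.

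**Figure D1:**
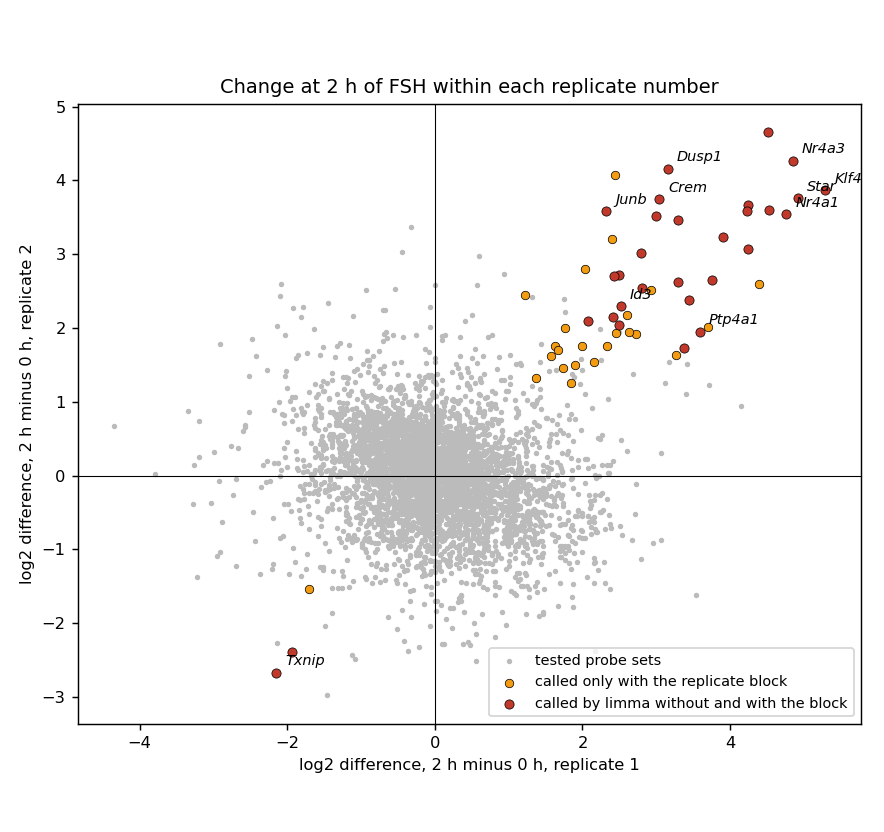
Each point is 1 of the 4439 tested probe sets, with its log2 difference between 2 h and 0 h in replicate 1 (horizontal axis) and in replicate 2 (vertical axis); red points were called by limma with and without the replicate block and orange points only with it. The red rises lie at the upper right, between 2.08 and 5.29 in replicate 1, with orange ones reaching down to 1.22, and the Txnip probe sets at the lower left, apart from a cloud centred near 0.

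Most tested probe sets did not move the same way in both pairs. The difference had the same sign in both pairs for 1780 probe sets, opposite signs for 2645, and a value of 0 in a pair for 14. A change of more than 1 log2 unit in both pairs was seen upward in 87 probe sets (1.96%) and downward in 35 (0.788%), while 128 passed that size in opposite directions. Both treated arrays lay above both untreated arrays for 526 probe sets (11.8%) and below for 546 (12.3%). The count of calls depended on single arrays. Without control replicate 1, 11 rose and 1 fell; without control replicate 2, 5 rose and 0 fell; without treated replicate 2, 12 rose and 0 fell. Without treated replicate 1 no probe set passed limma's test, where 88 higher and 60 lower had an unadjusted p under 0.05. The direction of all 30 calls was kept in each of these fits, and no call passed in all of them. Of 10 fits, each lacking 1 array of the series, 25 of the calls passed in 6 to 9 and the other 5 in 4 or fewer. Those 5 were Pde4b (4 fits), the less changed Txnip probe set (2), the less changed Star probe set (1), Dgcr6 (1) and LOC102547700 (0).

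The Nr4a genes, orphan nuclear receptors that act as transcription factors without a known hormone, had the highest median of the 33 function lists. The lists were chosen with earlier results of these data known, so that rank is description and not support. Nr4a1 read 70.1 and 101 at 0 h and 1897 and 1171 at 2 h (replicates 1 and 2), a 17.7-fold rise (limma, adjusted p = 0.0151). Nr4a3 was under the floor on both untreated arrays, at 8.98 and 4.44, and read 388 and 259 at 2 h, at least 23.6-fold higher. Nr4a2 read 6.38 and 8.87 against 309 and 163 on a probe set that rose at least 16.7-fold. In all 3 genes the treated arrays were far above the untreated ones, and replicate 1 gave the higher treated value. The other Nr4a2 probe set, at 8.76 and 10.6 against 254 and 171, rose at least 15.5-fold. The other Nr4a1 probe set had 54.9 and 61.7 against 713 and 251 and rose only with the replicate block (limma, adjusted p = 0.00473 with it and 0.204 without). The other Nr4a3 probe set was not called, with 21.1 and 46.4 against 106 and 37.1, where the groups overlap. Of the 6 Nr4a probe sets tested, 4 rose, and the median was 4.01 log2 units.

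**Figure D2:**
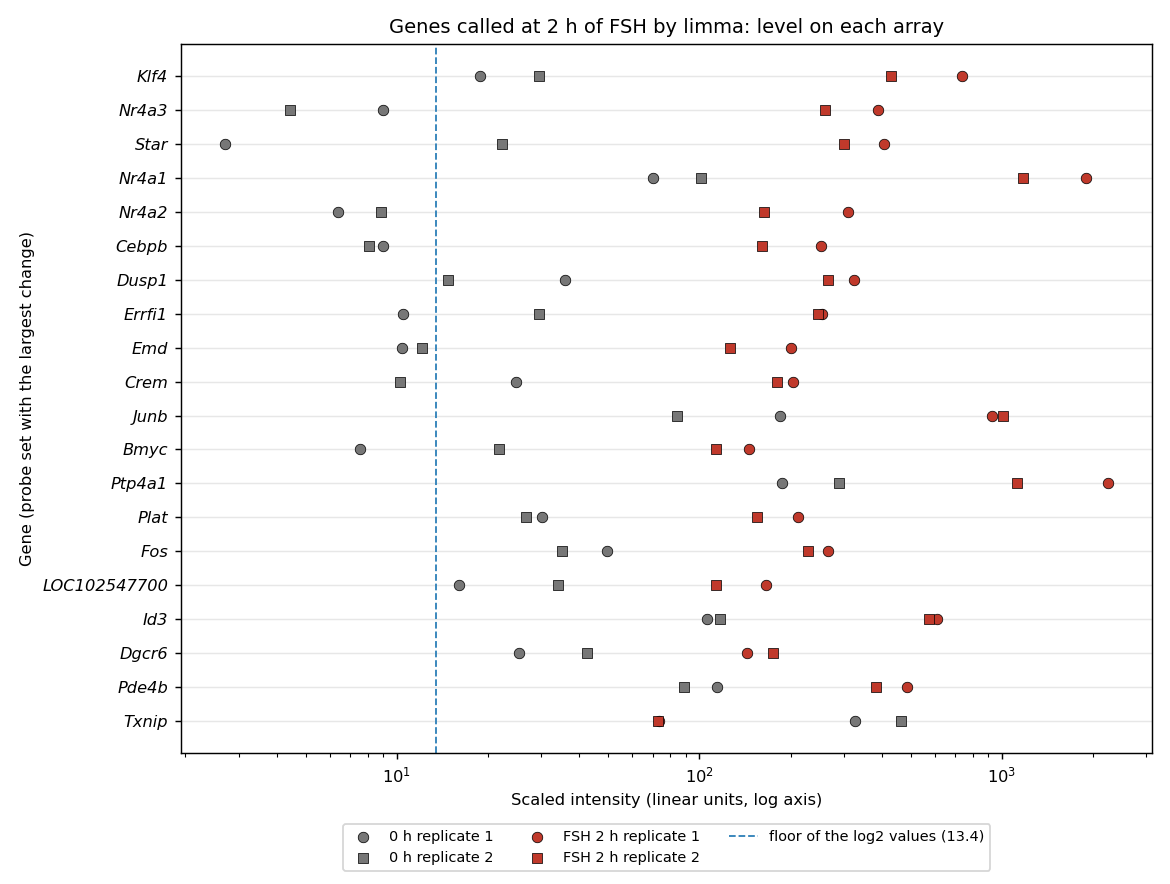
Scaled intensity (log axis) of the 20 genes called by limma, on the probe set with the largest change, on each of the 4 arrays; grey marks are 0 h, red marks FSH 2 h, circles replicate 1 and squares replicate 2, and the dashed line is the floor of 13.4. Untreated and treated arrays do not overlap in any row, and Txnip alone lies lower at 2 h. The Cebpb row shows the probe set that passed the brightness filter only through the 2 h arrays. Rows with both untreated marks under 31.92 passed it only through FSH arrays, of 2 h or later.

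Among the genes of AP-1, the dimer of Fos and Jun proteins, Fos and Junb passed the test. Fos read 49.3 and 35.0 at 0 h and 265 and 228 at 2 h, a 5.91-fold rise (limma, adjusted p = 0.0228). Junb, a Jun protein that often restrains c-Jun, read 175 and 202 against 935 and 896 on 1 probe set and 185 and 84.2 against 927 and 1006 on another, rises of 4.86-fold and 7.73-fold. Jun itself showed the opposite sign. Its brightest probe set read 464 and 376 untreated and 214 and 203 treated, a log2 difference of -1.0 ± 0.37 (SE), and the other 3 had -1.08 to -1.58, 1 of them with a treated array at the floor. On all 4 Jun probe sets both treated arrays lay below both untreated ones, but none passed limma's test (adjusted p 0.434 to 0.812). The same was seen in 12.3% of all tested probe sets, and the 4 read the same RNA. Fosl2, a Fos relative, had 102 and 20.8 against 152 and 124 and was not called. Atf3, a stress-induced factor that binds CRE-like sites, had 253 and 120 against 461 and 202 and was not called either (limma, adjusted p = 0.786 with the replicate block). Of 13 probe sets in the AP-1 and ATF list, 3 rose, all from Fos and Junb, and the list's median was 0.81. Fosl2, Atf3 and all but the most changed Jun probe set were named after their values were seen.

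Among zinc finger factors of the immediate early class, Klf4 alone passed the test. Klf4, a Krüppel-like factor linked to cell differentiation, read 18.8 and 29.4 at 0 h and 735 and 430 at 2 h, a 23.9-fold rise. Its other probe set had 53.1 and 54.2 against 1116 and 330 and rose with the replicate block (limma, adjusted p = 0.00327, against 0.220 without). Egr1, a growth-factor-induced factor of the same class, gave no rise on any of 4 probe sets. The brightest Egr1 probe set read 466 and 653 untreated and 530 and 821 treated, and the 4 log2 differences ran from -0.33 to 0.26. Klf6, a relative of Klf4, had 82.9 and 64.6 against 18.8 and 9.21, a log2 difference of -2.20 with 1 treated array at the floor and no call (adjusted p = 0.434). Zfp36, which destabilises cytokine messages, had 170 and 72.6 against 45.5 and 32.3, and its other probe set 208 and 176 against 166 and 109. Zfp36l1, its relative, had 147 and 437 against 1234 and 540, with the opposite sign and again no call. Thus 1 of the 17 probe sets in the zinc finger list rose, at a list median of 0.26. Egr1, Zfp36 and Zfp36l1 were named after their values were seen.

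C/EBP, Myc and Id proteins, which steer differentiation and growth, each had a rising member. Cebpb, a leucine zipper factor, read 72.0 and 35.0 at 0 h and 576 and 401 at 2 h, 9.58-fold, and a probe set under the floor at 0 h (8.98 and 8.07) reached 252 and 161, at least 15.0-fold. That dimmer probe set passed the brightness filter only through the 2 h arrays, so its call adds no support. Cebpd, its close relative, had 114 and 94.7 against 40.7 and 49.9, a log2 difference of -1.21 ± 0.32 that missed the threshold (limma, adjusted p = 0.300). Bmyc, a rodent Myc relative, read 7.57 and 21.7 against 146 and 113, 7.52-fold with 1 untreated array at the floor. Bmyc's 2 other probe sets had log2 differences of 1.61 each and were not called. Id3, which keeps basic helix-loop-helix factors off DNA, read 106 and 117 against 609 and 574, a 5.32-fold rise with closely matching replicates (limma, adjusted p = 0.00934). The dimmer Id3 probe set had 34.1 and 59.7 against 186 and 227 and rose with the replicate block (limma, adjusted p = 0.0299). The related Id1 and Id2 were not called. Id2 had 41.7 and 114 against 170 and 246, and Id1 89.8 and 105 against 159 and 180 on the brighter of 2 probe sets. Hes1, a Notch-responsive repressor, had 229 and 155 against 582 and 297. The list median was 0.39 for C/EBP and Myc factors, where 3 of 13 rose, 1 of them the dimmer Cebpb probe set. It was 0.93 for Id factors and their partners (1 of 10). Id1, Id2 and Hes1 were named after their values were seen.

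Within the cyclic AMP pathway, Crem and a phosphodiesterase gene rose. Crem, whose internal promoter yields the repressor ICER, read 122 and 90.9 at 0 h and 687 and 598 at 2 h, 6.09-fold. A dimmer Crem probe set had 24.8 and 10.2 against 204 and 181, 10.5-fold with 1 untreated array at the floor. The remaining Crem probe set, at 32.0 and 32.7 against 195 and 148, rose with the replicate block (limma, adjusted p = 0.0358). Treated replicates were close together in each, and all 3 Crem probe sets pointed the same way. Whether these probe sets read ICER was not tested. Pde4b, a phosphodiesterase that degrades cyclic AMP, read 114 and 88.7 against 484 and 382, 4.27-fold (limma, adjusted p = 0.0228). Pde4d, of the same family, had 23.3 and 12.2 against 123 and 124, 6.97-fold with 1 untreated array at the floor, and rose with the replicate block only (limma, adjusted p = 0.00298, against 0.0684 without). The other tested phosphodiesterases, Pde4a, Pde4c and Pde1b, had log2 differences of -0.63, -0.44 and -0.91 and no call; Pde4a and Pde1b were named to complete the list. On the list of the FSH receptor, G proteins, adenylyl cyclases, kinase subunits and anchors, 0 of 24 probe sets passed in either fit. By limma 0 had an unadjusted p under 0.05. That count of calls is near the share over all tested probe sets, 0.676%, and 1.22% with the block. The median of that list was -0.20, and Fshr itself read 195 and 88.2 at 0 h and 122 and 90.5 at 2 h.

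Some inhibitors of growth factor signalling rose as well. Dusp1, a phosphatase that switches off MAP kinases, read 25.3 and 21.8 at 0 h and 250 and 241 at 2 h, 10.5-fold, and 36.0 and 14.8 against 323 and 265, 12.7-fold, on a further probe set. Its remaining probe set had 76.2 and 10.4 against 415 and 228 and rose with the replicate block (limma, adjusted p = 0.00231). Errfi1, a feedback inhibitor of the EGF receptor, read 10.5 and 29.5 against 255 and 247, 12.6-fold with 1 untreated array at the floor. The other Errfi1 probe set, at 44.6 and 135 against 401 and 393, missed the threshold in both fits (limma, adjusted p = 0.190 and 0.0813). The treated replicates of Errfi1 nearly coincided while its untreated ones were further apart. Dusp5 and Dusp6, phosphatases that act on ERK kinases and were named after their values were seen, had log2 differences of 0.87 and 0.71 and no call. On this list 3 of 17 probe sets rose and the median was 0.71, under each of the 3 scalings between 0.70 and 0.83. Ptp4a1, a membrane-associated phosphatase found as an early gene of growing liver, read 187 and 290 against 2245 and 1123, 6.82-fold (limma, adjusted p = 0.0184).

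The promoters of the called genes were read for the letters of the CRE, since many of them belong to the factors and brakes of the preceding results. RefSeq windows of the assembly GRCr8, cut to the 250 bases before the annotated start, existed for 14 of the 19 genes that rose. The short CRE core (TGACG, or CGTCA on the other strand) was present in 11 of these genes (78.6%). It was present in 30% of the 2273 tested genes with a window and 20% of all 27457 genes with one. The full palindrome TGACGTCA, which contains the short core on both strands, was in 3 of the 14 (21.4%), namely Dusp1, Crem and LOC102547700, against 2.86% of tested genes and 1.78% of all. The CArG box of serum response factor was in 0 of the 14 and in 37 of the 2273. The windows of the called genes had a median GC content of 62.2%, those of tested genes 60.8% and all windows 51.2%. With the genes that rose with the replicate block, 16 of 25 (64.0%) held the short core. A match shows that the letters are present and not that a protein binds there. The following windows, written 5′ to 3′ with CRE letters in capitals, are limited to 6 factor and brake genes with a match. They stand in order of change and show where the core lies.
Nr4a1, chr7:134259888-134260137, plus strand: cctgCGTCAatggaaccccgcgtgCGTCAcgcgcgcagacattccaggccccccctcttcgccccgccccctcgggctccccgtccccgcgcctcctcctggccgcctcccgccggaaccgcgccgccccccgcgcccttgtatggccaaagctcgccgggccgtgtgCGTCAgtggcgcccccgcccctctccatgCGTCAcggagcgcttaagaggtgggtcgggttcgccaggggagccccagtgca
Nr4a2, chr3:62104888-62105137, minus strand: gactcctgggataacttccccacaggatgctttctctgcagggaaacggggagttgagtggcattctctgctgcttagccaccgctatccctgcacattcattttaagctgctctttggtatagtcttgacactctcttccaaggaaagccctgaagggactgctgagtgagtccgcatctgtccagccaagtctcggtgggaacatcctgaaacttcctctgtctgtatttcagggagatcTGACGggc
Cebpb, chr3:176816755-176817004, plus strand: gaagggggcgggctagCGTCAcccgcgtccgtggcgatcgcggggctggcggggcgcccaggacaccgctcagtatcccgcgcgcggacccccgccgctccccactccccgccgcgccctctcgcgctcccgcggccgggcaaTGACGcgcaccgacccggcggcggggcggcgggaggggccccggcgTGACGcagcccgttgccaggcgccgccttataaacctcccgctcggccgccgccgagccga
Dusp1, chr10:17184603-17184852, plus strand: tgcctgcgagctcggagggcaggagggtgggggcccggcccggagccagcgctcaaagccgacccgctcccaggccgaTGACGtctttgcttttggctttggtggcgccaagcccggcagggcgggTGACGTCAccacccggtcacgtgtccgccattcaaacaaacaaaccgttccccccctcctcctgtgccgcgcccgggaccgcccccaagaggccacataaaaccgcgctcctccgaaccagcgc
Errfi1, chr5:166606591-166606840, plus strand: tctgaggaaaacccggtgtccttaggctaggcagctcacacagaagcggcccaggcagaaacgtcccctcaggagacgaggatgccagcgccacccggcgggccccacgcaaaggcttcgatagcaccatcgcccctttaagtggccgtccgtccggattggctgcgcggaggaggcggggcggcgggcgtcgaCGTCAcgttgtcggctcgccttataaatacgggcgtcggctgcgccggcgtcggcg
Crem, chr17:58984547-58984796, plus strand: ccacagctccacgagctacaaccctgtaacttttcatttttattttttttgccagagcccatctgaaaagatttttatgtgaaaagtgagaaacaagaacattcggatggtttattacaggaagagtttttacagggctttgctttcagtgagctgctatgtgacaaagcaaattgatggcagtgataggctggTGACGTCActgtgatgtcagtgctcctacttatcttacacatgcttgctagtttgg

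Nr4a1 held 4 cores between 246 and 53 bases before its start, and Cebpb 3 between 234 and 61. In Dusp1 the full palindrome was joined by a further core, the farthest 172 bases before the start. Nr4a2 and Errfi1 each held 1, at 8 and 56 bases. Junb, next in order of change and not shown, held 1 at 155 bases. Crem has 3 windows in the table, and the window shown is an internal one that carries TGACGTCA. The rule that picked it, the window with the most full and then the most short matches, was set after the windows had been seen. Klf4, Id3 and Pde4b had windows without a core, which says nothing of more distant elements.

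Among genes outside transcription and signalling, Star had the clearest rise. Star, which moves cholesterol to the inner mitochondrial membrane, read 2.70 and 22.3 at 0 h and 406 and 301 at 2 h, 20.2-fold with 1 untreated array at the floor, and had the smallest adjusted p of all (limma, 0.00344). Its other probe set had 34.1 and 63.3 against 237 and 514, 7.51-fold. Fdx1, the ferredoxin that hands electrons to mitochondrial P450 enzymes, read 245 and 247 against 829 and 985, 3.67-fold, and rose with the replicate block (limma, adjusted p = 0.0165, against 0.0545 without). The dimmer Fdx1 probe set had 47.0 and 75.9 against 58.2 and 175, where the groups overlap. The list of steroid synthesis and cholesterol delivery otherwise gave no call: Nr5a1 had a log2 difference of -1.01 and Scarb1, on 3 probe sets, -0.44 to -0.06 (both named after their values were seen). Of 20 probe sets, 2 rose, both from Star, and the median was -0.07. In cholesterol synthesis 0 of 27 passed limma's test, with 1 at an unadjusted p under 0.05. Mvk, mevalonate kinase, had the largest difference there, with 18.1 and 22.7 against 53.0 and 60.8, though its other probe set had a log2 difference of only 0.22.

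Plat, the tissue-type plasminogen activator that Sertoli cells secrete, read 30.1 and 26.7 at 0 h and 211 and 155 at 2 h, a 6.39-fold rise (limma, adjusted p = 0.0119). It was the 1 probe set of 34 to rise in the list of proteases and their inhibitors, whose median was 0.09. Emd, the inner nuclear membrane protein emerin, read 10.4 and 12.1 against 201 and 126, at least 11.8-fold higher. The brighter Emd probe set had 148 and 143 against 398 and 299, a log2 difference of 1.25 ± 0.34 with no overlap and no call (limma, adjusted p = 0.334, and 0.0952 with the replicate block). The Emd probe sets therefore differ in size by more than their errors. Dgcr6, a gene of the DiGeorge syndrome region, read 25.4 and 42.6 against 144 and 175, 4.81-fold. LOC102547700 read 16 and 34.1 against 166 and 113, 5.85-fold (limma, adjusted p = 0.0387), and its other probe set was not called at a log2 difference of 1.69.

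Txnip was the only named gene that fell, and it fell on both of its probe sets. Txnip binds thioredoxin and restrains glucose uptake. It read 326 and 464 at 0 h and 73.5 and 72.8 at 2 h, and on the other probe set 196 and 286 against 51.3 and 54.7. These were 5.32-fold and 4.47-fold falls (limma, adjusted p = 0.0132 and 0.0268). The treated replicates nearly coincided and lay well below either untreated array. Txnip was the only gene called on the list of glucose uptake, glycolysis and lactate, with 2 of the 42 probe sets. That list had a median of -0.32, with 35 of its probe sets below 0 and 7 above, and the same median under all 3 scalings. Hk2, a hexokinase, had the largest upward difference there, 39.5 and 45.9 against 107 and 85.8, and was not called, while its other probe set had a log2 difference of -0.09.

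On the list of amino acid and polyamine metabolism 0 of 38 probe sets passed limma's test, 4 were higher and 1 lower at an unadjusted p under 0.05, 2 rose with the replicate block, and the median was 0.00. Amd1, the decarboxylase that makes the aminopropyl donor of polyamines, read 96.4 and 93.0 at 0 h and 320 and 257 at 2 h, 3.03-fold (limma, adjusted p = 0.0190 with the block and 0.0641 without). Mat2a, which makes S-adenosylmethionine, which Amd1 uses, read 352 and 167 against 1089 and 562, 3.22-fold (0.0209 and 0.428 by limma). The Mat2a replicates differed about as much within each time, with replicate 1 higher in both. Odc1, the ornithine decarboxylase of the same pathway, had log2 differences of -0.42 and -0.34 and no call, and was named after its values were seen. Slc25a30, a mitochondrial carrier, read 291 and 259 against 926 and 842, 3.21-fold with the block (limma, adjusted p = 0.0111, against 0.0545 without). It was the 1 of 89 solute carrier probe sets to do so, in a list with a median of -0.07.

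The remaining genes that rose with the replicate block were Metrnl, Inha, Cxcr4, Ephb3, Ezr, Pim1 and Rasl11b. Metrnl, a secreted meteorin-like protein, read 129 and 123 at 0 h and 798 and 475 at 2 h, 4.89-fold. Inha, the alpha subunit of inhibin by which Sertoli cells lower pituitary FSH, read 286 and 141 against 738 and 352, a 2.54-fold difference that appeared in each pair while replicate 2 at 2 h was close to replicate 1 at 0 h (limma, adjusted p = 0.0403 with the block and 0.942 without). The other Inha probe set, at 363 and 167 against 640 and 327, was not called, and its groups overlap. Cxcr4, the chemokine receptor, read 40.5 and 33.5 against 181 and 97.2, 3.60-fold, while its 2 other probe sets were brighter and not called, at log2 differences of 1.17 and 0.70. Ephb3, a receptor for ephrin-B ligands, read 0.866 and 5.86 against 130 and 41.5, at least 5.46-fold higher. Ezr, which ties actin to the plasma membrane, read 128 and 121 against 457 and 290, 2.93-fold.

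Ephb3 and Ezr were the block calls on a list of 20 cell junction probe sets, which had a median of 0.41 and 15 members above 0. On that list Pvr, a nectin-like adhesion protein, had a log2 difference of 1.99 and Ocln, the tight junction protein occludin, 0.88 to 1.14 on 3 probe sets, without a call; both were named after their values were seen. Pim1, a kinase that promotes survival, read 18.5 and 7.10 against 76.0 and 93.6, 5.35-fold with 1 untreated array at the floor. Pim1 too passed the brightness filter only through the 2 h arrays, so its call adds no support either. Rasl11b, a small GTPase, read 85.7 and 34.2 against 200 and 187, 3.58-fold, and was called with the block at an adjusted p of 0.0375 by limma. Its brighter probe set had 172 and 46.3 against 327 and 307. That probe set was not called (limma, adjusted p = 0.0835 with the block and 0.51 without).

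Several genes were lower at 2 h on both arrays without passing limma's test, and are given as values. Both treated arrays lay below both untreated ones in 12.3% of all tested probe sets. Nr1d1, the clock repressor Rev-erb alpha, had 222 and 148 at 0 h and 90.4 and 82.2 at 2 h on 1 probe set and 171 and 80.1 against 51.0 and 33.4 on the other. Both Nr1d1 probe sets lay lower on both treated arrays, with adjusted p of 0.587 and 0.428 by limma. Its paralog Nr1d2 had 55.2 and 158 against 244 and 126, which overlap, and 0 of 9 circadian probe sets was called by limma, with 0 higher and 2 lower at an unadjusted p under 0.05. Edn1, the vasoconstrictor endothelin, had 195 and 84.2 against 66.0 and 35.6, and Adm, the vasodilator adrenomedullin, had 104 and 106 against 37.7 and 9.21, the last under the floor. The list of prostaglandin and vasoactive genes had the lowest median of the 33 function lists, -0.47, a rank that is description only. On it 0 of 14 were called by limma and 2 were lower at an unadjusted p under 0.05. Krt8 and Krt18, the keratin pair of simple epithelia and of immature Sertoli cells, had 189 and 244 against 20.2 and 93.9 and 115 and 83.7 against 25.0 and 34.7. Both keratins were lower on both treated arrays at log2 differences of -2.30 ± 1.15 (SE) and -1.74 ± 0.66. Nr1d2, Edn1, Krt18 and the less changed Nr1d1 probe set were named after their values were seen.

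Some uncalled genes were higher on both treated arrays with a fitted fold above 4, though not above 4 in each pair. Both treated arrays lay above both untreated ones in 11.8% of all tested probe sets. Cyp1b1, a P450 that oxidises steroids and xenobiotics, had 26.8 and 91.6 at 0 h and 288 and 261 at 2 h. Maf, a leucine zipper factor, had 17.1 and 52.3 against 182 and 113. Nppc, which encodes C-type natriuretic peptide, had 22.4 and 50 against 195 and 120. In each the untreated replicates differed 2-fold or more and the treated ones less than 2-fold, and the adjusted p was 0.104 to 0.270 by limma. Kcnk5, a background potassium channel, had 29.3 and 10 against 98.5 and 70.5.

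Across functions, calls were found in 12 of 33 gene lists, and in 16 with the replicate block. The other 17 had no call in either fit, with medians between -0.47 and 0.18. Over all tested probe sets 0.676% were called, and 1.22% with the block, so a list without a call is near that share. The lists were chosen with earlier results of these data known. Machinery genes stayed near the overall median of -0.02. Of 60 probe sets on the list of cytosolic ribosomal proteins, 0 were called by limma and 0 had an unadjusted p under 0.05. The median was 0.01, and the list also holds the kinase gene Rps6kb1. Oxidative phosphorylation had 0 of 87 called, 3 lower at an unadjusted p under 0.05 and a median of -0.01. The proteasome and ubiquitin list had 0 of 60 called by limma, 0 at an unadjusted p under 0.05 and a median of 0.05. Heat shock and folding chaperones had 0 of 61 called, 1 higher at an unadjusted p under 0.05 and a median of 0.17. In the insulin-like growth factor system 0 of 18 were called by limma and 0 had an unadjusted p under 0.05. Sertoli secreted products and identity genes gave 0 calls of 33, with 1 lower at an unadjusted p under 0.05 and a median of -0.04. Cell cycle and DNA replication gave 0 of 38 with 2 higher at an unadjusted p under 0.05, and Pcna, the replication clamp, had 221 and 700 against 1140 and 779.

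**Figure D3:**
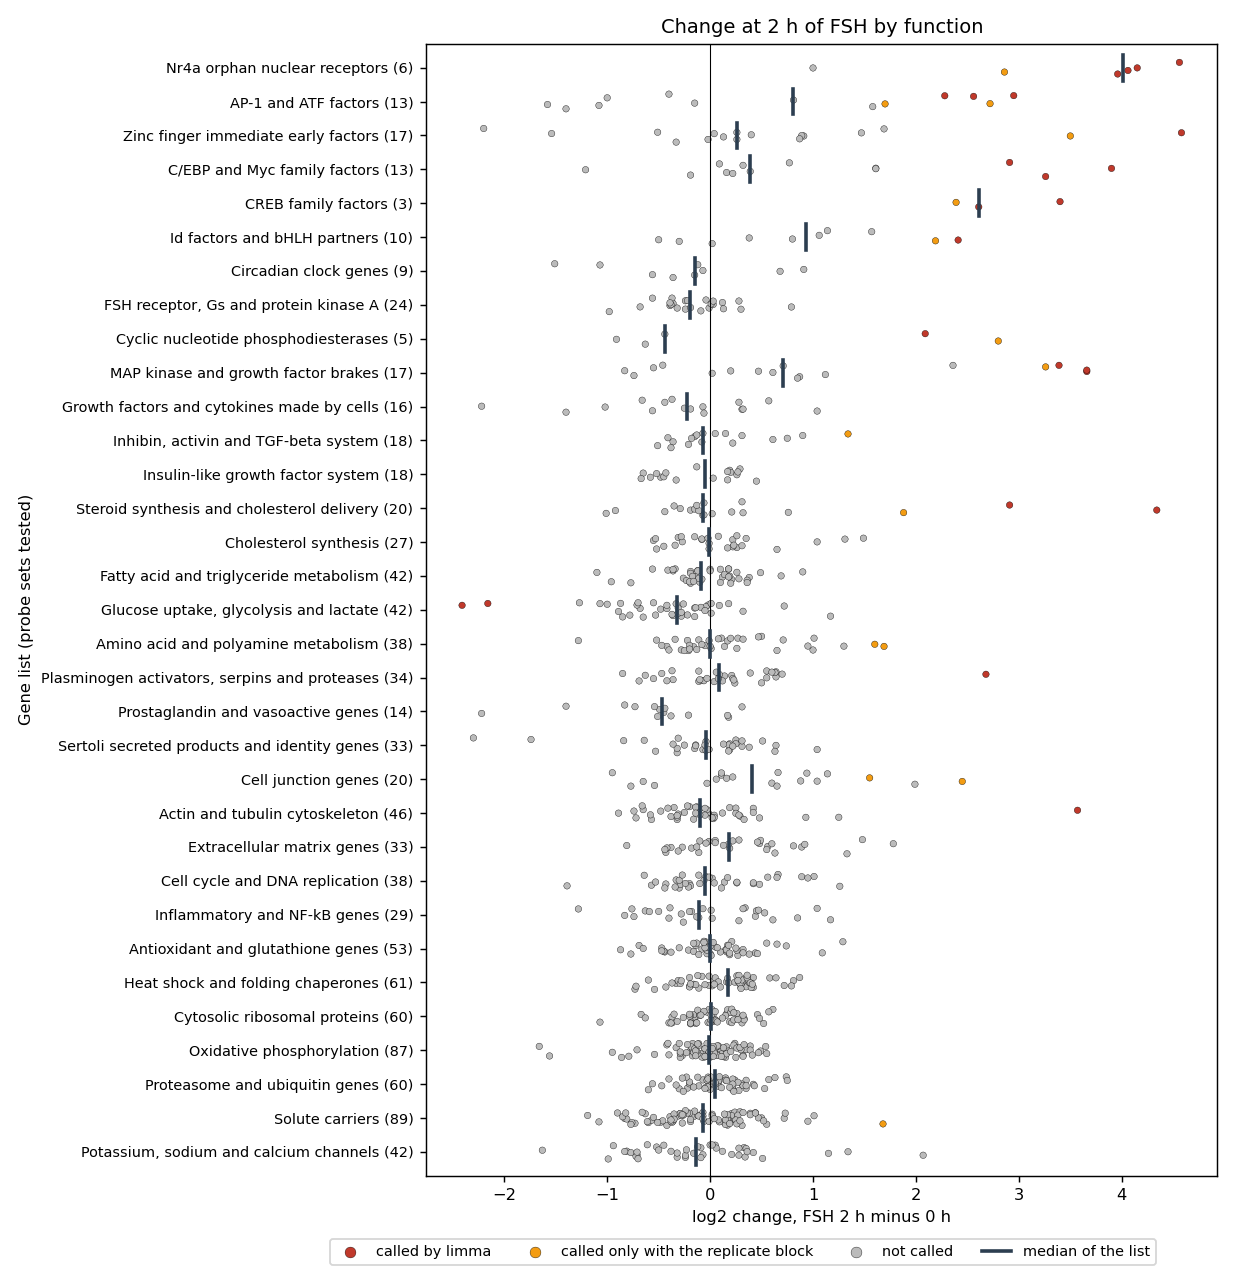
Log2 change between 0 h and FSH 2 h (horizontal axis) of every tested probe set in 33 function lists (rows, with the number tested); red points were called by limma, orange points only with the replicate block, grey points not, and the bar is the list's median. Called points lie in 12 rows, among them the factor, brake, phosphodiesterase and steroid rows, while ribosomal, respiratory and proteasome rows sit within about 1 log2 unit of 0 apart from a few lower points.

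Without a gene symbol, 3 called probe sets are reported by their identifiers. M60921_g_at had the largest fitted rise, from 49.7 and 20.9 at 0 h to 1137 and 531 at 2 h, 24.1-fold; its order against genes whose untreated arrays were under the floor, such as Nr4a3, is set by the floor. The related M60921_at, at 290 and 191 against 1455 and 642, rose with the replicate block. The probe set rc_AA944156_s_at went from 105 and 96.9 to 1413 and 610, and rc_AA875032_at from 133 and 113 to 1305 and 697. All 3 had untreated values above the floor and well separated groups. With the block the fall of rc_AA893260_at, from 128 and 185 to 39.1 and 63.7, was added (limma, adjusted p = 0.0294). The 19 genes that rose had 38 tested probe sets, of which 25 were called, 7 more rose with the block and 6 did not pass, with the smallest log2 difference at 1.00. Probe sets of 1 gene read the same RNA on the same arrays and are not independent.

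Later arrays describe how the calls of 2 h went on, with no test and with the same untreated arrays. The highest group mean was that of 2 h for 18 of the 28 rises, of 4 h for 7, of 8 h for 3 and of 24 h for 0. These probe sets were picked for high values at 2 h, which favours a highest mean at 2 h. Nr4a3, at 388 and 259 at 2 h, had 326 and 182 at 4 h, 76.1 and 59.0 at 8 h and 35.2 and 8.62 at 24 h. Junb had 412 and 345 at 4 h and 171 and 182 at 8 h on the probe set that was closest between replicates. Its untreated arrays had 175 and 202. Crem was higher at 4 h than at 2 h, at 1268 and 1244, and had 927 and 564 at 8 h and 113 and 174 at 24 h. Star likewise reached 732 and 773 at 4 h. Plat had 523 and 379 at 4 h and 499 and 606 at 8 h before 52.4 and 71.1 at 24 h. Of these, Nr4a3 and Junb had their highest mean at 2 h and Star, Plat and Crem later, as did Bmyc, with 163 and 186 at 4 h. Dgcr6 had its highest values at 8 h, 460 and 640, and Fdx1 had 2229 and 2704 at 4 h and 2410 and 2499 at 8 h. Txnip was lowest at 2 h on both probe sets, with 327 and 276 at 4 h and 252 and 276 at 8 h on the more changed probe set and 144 and 157 and then 124 and 140 on the other. Jun, not called at 2 h, had 491 and 328 at 4 h, and Nr1d1 went on to 26.2 and 22.2 at 8 h and had 101 and 93.5 at 24 h.

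**Figure D4:**
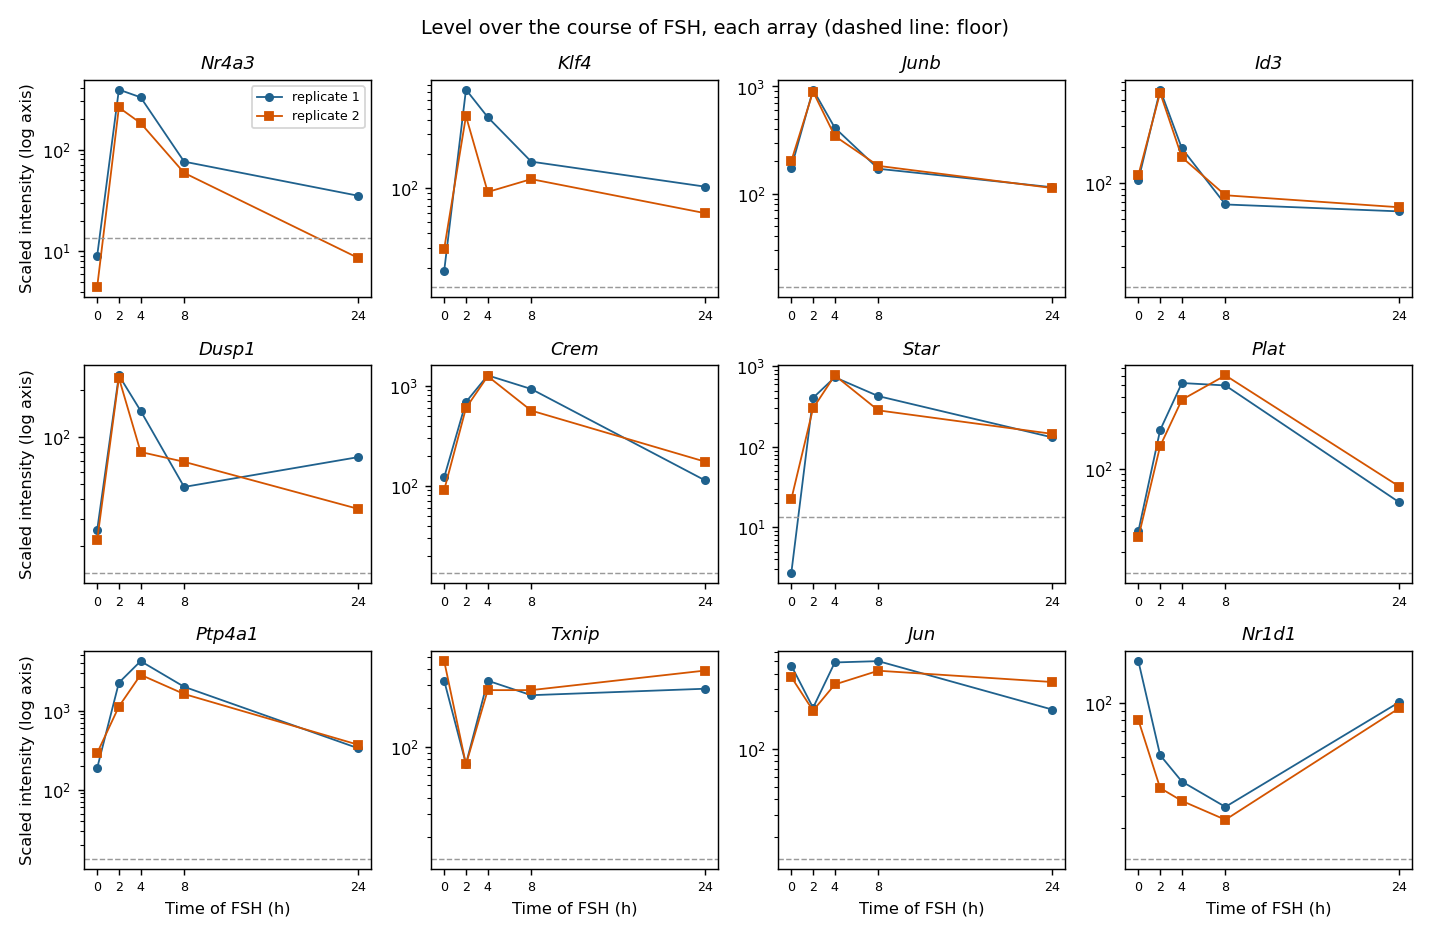
Scaled intensity (log axis, with its own range in each panel) against hours of FSH for 12 genes; each line joins the arrays of 1 replicate number and the dashed line is the floor of 13.4. Nr4a3, Klf4, Junb, Id3 and Dusp1 are highest at 2 h, Crem, Star and Ptp4a1 at 4 h, Plat at 4 h or 8 h by replicate, and Txnip is lowest at 2 h.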

How the data were processed

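Transcripts of cultured rat Sertoli cells were measured on 10 Affymetrix arrays (2 each at 0, 2, 4, 8 and 24 h of FSH). The deposited table holds a linear intensity for each probe set on each array; how the authors computed it is not given in the sources used here. The groups follow the labels; control replicate 1 was taken as 0 h from its description. Array numbers limit the precision.

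Each array was divided by 0.911 to 1.127 to share a 75th percentile of 107.5, values were raised to a floor of that percentile divided by 8, and log2 was taken. Probe sets with a mean over all 10 arrays under the pooled median of 31.92 were left out, which kept 4439 of 8740. Of these, 32 passed only through the 2 h arrays, 1 of them a call and 2 with the block (Cebpb S77528cds_s_at and Pim1). That count left out the 2 h arrays alone and kept the later FSH arrays. For example, the called probe sets of Nr4a3, Nr4a2, Emd and, with the block, Ephb3 had untreated means of 3.36 to 11.2. They passed only through FSH arrays, of 2 h or later. Intensities in the text are scaled and without the floor, except those of the control probe sets (CreX and the 3'/5' ratios), which are as deposited. Folds are limma differences raised from log2.

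limma 3.58.1 (R 4.3.3) was used for the contrast, by lmFit on 1 mean per group (5 residual degrees of freedom) and eBayes with an intensity trend, with Benjamini-Hochberg adjustment over all 4439. The scripts were tested on simulated data. Arrays of 1 number deviated together from their group means (r = 0.11 to 0.698 over the 10 pairs of groups, lowest for 0 h with 2 h), so the replicate numbers of the labels were taken to pair the samples; the fit with the number as a block has 4 residual degrees of freedom. Alternatives were other scalings, floors, filters, the variance model, the 4 arrays alone and each array left out.

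Symbols came from the platform's table (7006 probe sets with 1, 308 with several, 1426 with none), 6985 of them matched to RefSeq GRCr8. Named were called probe sets with 1 symbol (with or without the block), other probe sets of those genes, the largest consistent rise and fall of each list, and the 10 smallest p-values in each direction; genes added later are marked. Comparison, members and lists were chosen with earlier results of these data known. The rule's promoter windows were cut to 250 bases before the start.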

Additional observations from a re-analysis of the deposited data

Results flagged for a closer look

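Some probe sets that rose at 2 h lay below both untreated arrays at a later time, on both later arrays; these differences were not tested and share the untreated arrays. Id3 on its brighter probe set was 2.41 log2 units higher at 2 h, -0.62 at 8 h (pairs -0.67 and -0.56) and -0.88 at 24 h (pairs -0.87 and -0.89). The dimmer Id3 probe set was 2.19 higher at 2 h and -1.67 at 24 h, where pair values were -1.18 and -2.15; replicate 2 at 24 h was under the floor, so that -2.15 and -1.67 are set by the floor. The Junb probe set with a rise of 2.28 had -0.73 at 24 h, with -0.61 and -0.84 in the pairs.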

How the results depend on the processing

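All 30 calls kept their direction in every alternative run, and all 29 of those still tested under a filter at 2 times the pooled median stayed called there. The count of rises, 28, became 51 with the replicate block, 9 with only the 4 arrays of 0 h and 2 h and 14 with no filter on dim probe sets; the falls, 2, became 0 with the 4 arrays (100 higher and 38 lower at an unadjusted p under 0.05, limma), 1 with the values as deposited and 9 with no filter. Of the 30 calls, 10 stayed called with no filter and 9 with the 4 arrays. The fit of 4 arrays has fewer residual degrees of freedom and the unfiltered fit adjusts over more probe sets. Quantile normalization gave 32 rises, a floor at the percentile divided by 4 gave 34 and divided by 16 gave 28, and eBayes without the trend 29. Leaving out 1 array at a time gave 0 to 29 rises and 0 to 2 falls; the lowest, without treated replicate 1, leaves a lone treated array assumed to vary like the other groups. The block turned 24 further probe sets into calls and changed no other call. Values near 0 changed sign only when 1 array was left out: Id1 L23148_at ran from -0.24 to 0.29 (also -0.01), Egr1 U75398_s_at from -0.26 to 0.34 (also -0.06), Egr1 AF023087_s_at from -0.06 to 0.57 and Fdx1 rc_AI044488_at from -0.04 to 1.55; the cause was not tested. With 2 arrays per group and no untreated culture at 2 h, the size of rises from the floor and the part of time in culture are the main limits.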
